A study of Mus musculus with 2 samples.

Results

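The genes described here encode the proteins of the cytosolic ribosome. They were taken by symbol: every probe set annotated with a single gene symbol that begins with Rpl or Rps and a digit, or with Rplp, or that is Rpsa, leaving out the kinases with Rps6k in their name. The rule took 101 of the 22690 probe sets on the array, and these carry 49 of the 12393 gene symbols that a probe set reports alone. A probe set is a group of short oligonucleotides that together report 1 transcript. Of the 49 symbols, 20 are large subunit proteins, 2 are proteins of the large subunit stalk, 20 are small subunit proteins, 6 are paralogs of such proteins and 1, Rps15a-ps6, is annotated as a transcribed pseudogene.

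The series compares the liver of male apolipoprotein E-deficient mice with a C57BL/6J background on 2 diets. The control mice ate a semipurified Western diet over 11 weeks. The treated mice ate a Western diet with 0.01% oleanolic acid, a plant triterpenoid, which gave 10 mg per kg per day over 11 weeks. These groups follow the title and diet label of each array, while the growth protocol, worded alike for both, names oleanolic acid for the control too, so the direction of every ratio below rests on the titles and diet labels. The labels give an age of 2 months, when feeding began. Liver RNA of each diet was pooled before it was labelled with biotin and hybridized to an Affymetrix array, so each diet is 1 array, the number of mice in a pool is not given in the sources used here, and no value below has a replicate or a p-value. The lack of apolipoprotein E is shared by both groups.

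The cytosolic ribosome is made of a small subunit, which reads the messenger RNA, and a large subunit, which joins amino acids and passes the new chain through an exit tunnel. Its proteins are made in balanced amounts, and their messenger RNAs, among the most abundant in a cell, begin with a run of pyrimidines (the TOP motif) through which the kinase mTORC1 controls their translation. In liver, which secretes most plasma proteins, ribosome supply follows feeding and growth signals. Many of these genes have processed pseudogenes, and several proteins of the ribosome also act outside it.

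Promoter sequences of RefSeq (GRCm38.p6) were searched for 4 short motifs around the start sites of these genes. Of the 45 genes with a usable signal, 39 matched a promoter entry, with 46 entries of 300 bases (250 before and 50 after the annotated start). The letters CGGAAG, the core bound by ETS factors such as GABP, were found on either strand in 28 of the 46 (60.9%), against 16.9% of all 32851 promoter entries of that length. CTTTCC, a pyrimidine-rich run, was in 22 of the 46 on either strand (47.8%, against 26.6% of all). It was sought anywhere in the 300 bases, so this is not a count of TOP motifs at start sites. CCATNTT, the core of the YY1 site, was in 15 (32.6%, against 16.1% of all), while the TATA box letters TATAAA were in 6 (13.0%, against 13.6% of all). Matches to different motifs may overlap, and a match is a description of letters, not a site in use. The comparison was with all promoter entries, not with genes of like expression or base content. Whether these shares are particular to ribosomal genes was not tested. The 6 stretches below, from 70 bases before to 30 bases after the annotated start, belong to the highest and lowest members (Rps27, Rpl37a and Rpl37) and to 3 genes read by bright probe sets (Rpl35, Rps18 and Rplp2, at 0.087, 0.051 and 0.15), with matches to any of the 4 motifs in capitals.
Rps27, chr3:90213619-90213718, minus strand: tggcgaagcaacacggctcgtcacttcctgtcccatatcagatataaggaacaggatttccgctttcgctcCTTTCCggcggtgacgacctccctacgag
Rpl37a, chr1:72711190-72711289, plus strand: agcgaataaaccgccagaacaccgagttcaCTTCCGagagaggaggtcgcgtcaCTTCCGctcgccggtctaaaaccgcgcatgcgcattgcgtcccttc
Rpl37, chr15:5116543-5116642, plus strand: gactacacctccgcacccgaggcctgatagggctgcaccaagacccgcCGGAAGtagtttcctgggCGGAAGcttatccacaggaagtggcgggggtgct
Rpl35, chr2:39005102-39005201, minus strand: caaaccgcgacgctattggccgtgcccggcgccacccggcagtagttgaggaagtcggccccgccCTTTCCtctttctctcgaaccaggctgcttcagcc
Rps18, chr17:33955636-33955735, minus strand: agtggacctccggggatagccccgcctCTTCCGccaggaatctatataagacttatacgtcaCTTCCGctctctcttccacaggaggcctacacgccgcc
Rplp2, chr7:141447581-141447680, plus strand: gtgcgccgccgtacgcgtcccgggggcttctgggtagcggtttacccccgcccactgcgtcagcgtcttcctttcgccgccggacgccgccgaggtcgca
The ETS letters occur as a pair in Rpl37a, Rpl37 and Rps18, so the highest and lowest large subunit members both hold them, and none of the 4 motifs is in the stretch of Rplp2.

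The summed signal of 6 hepatocyte markers with a probe set (8 listed) was 53917 units for the control and 52990 for oleanolic acid, so hepatocyte transcripts were bright on both arrays. Of the 6, 2 were lower in the oleanolic acid array, among them Tat, a tyrosine-degrading enzyme, with 4440 and 2725 (log2 ratio -0.70). Sums for other cell types also differed between the pools. The 6 exocrine pancreas markers (8 listed) summed to 824 and 239 units with 6 of 6 lower in the oleanolic acid array, 5 B and plasma cell markers (6 listed) to 1069 and 236 with 3 of 5 lower and only 2 of them measured, and 6 of 6 macrophage markers were lower, with sums of 8282 and 7587. The 4 brown fat markers summed to 1053 and 3151 because of Elovl3, which liver also expresses, while the other 3 were lower in the oleanolic acid array. In a pooled tissue, fewer cells of a type and less RNA per cell cannot be told apart, and the part of these cell types in the ribosomal values was not tested. No listed marker was at 0 on either array.

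Only probe sets that reached the array's median signal in at least 1 pool were counted as measured; that median was 61.5 units for the control and 59.3 for the oleanolic acid array. Of the 101 ribosomal probe sets 83 passed, for 45 genes, and 1 of the 83 (Rpl14) reached the median only in the control. The other 18 had signals of 1.0 to 59.8. Among them, 14 belong to genes that also had a measured probe set, and the remaining 4 are the only ones of Rpl12, the pseudogene Rps15a-ps6, and the paralogs Rpl39l and Rpl3l, of which Rpl3l is known from muscle and Rpl39l from testis. The single probe set of Rpl3l had signals of 2.8 and 3.5, and that of Rpl39l 11.2 and 7.9. Rpl12, a protein at the base of the stalk, had signals of 57.1 and 49.2 on its own probe set, but 3490 and 3804 (log2 ratio 0.12), and 5038 and 5085 (0.013), on 2 probe sets that it shares with pseudogene symbols.

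Ribosomal protein transcripts differed little between the diets. Each gene's value is a log2 ratio of oleanolic acid to control averaged across the measured probe sets of the gene, and its error, the probe set SD, is the SD between them or, for a gene with 1 probe set, the pooled SD of genes of like signal. Across the 45 measured genes the median was 0.066 (about 1.05-fold), with the middle 50% between 0.020 and 0.10, the lowest at -0.30 and the highest at 0.62. The median of all 7137 measured genes was 0.0012, with the middle 50% between -0.14 and 0.12. No ribosomal gene reached the log2 ratio of 1.5 that the submitters used as their size of interest, in a background where 0.112% of all genes were above 1.5 and 0.28% below -1.5, and none reached 1 (0.392% above and 0.631% below).

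The ribosomal genes lay closer together than genes at large, though this was not particular to them. Within 0.25 of 0 were 41 of 45, beside 5464 of all 7137 measured genes. For mitochondrial ribosomal protein genes the count was 70 of 74, and for proteasome subunit genes 27 of 31. Above 0.25 (1.19-fold) there were 3 of 45 ribosomal genes, against 10.6% of all measured genes, and below -0.25 there was 1, against 12.9%. Past 0.5, 2 were higher (2.63% of all genes) and 0 lower (3.24%). The count above 0 was 35 of 45, against 50.2% of all genes. It was, however, 28 of 45 with quantile normalization or with intensity-dependent (lowess) centring, where the median was 0.0095 and 0.017. In these settings 52.2% and 52.0% of all genes were above 0, and the medians of all genes were 0.0101 and 0.0082. Under the 4 scalings tried, 26 ribosomal genes were above 0 in all, 9 were below 0 in all and 10 changed sign.

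**Figure D1:**
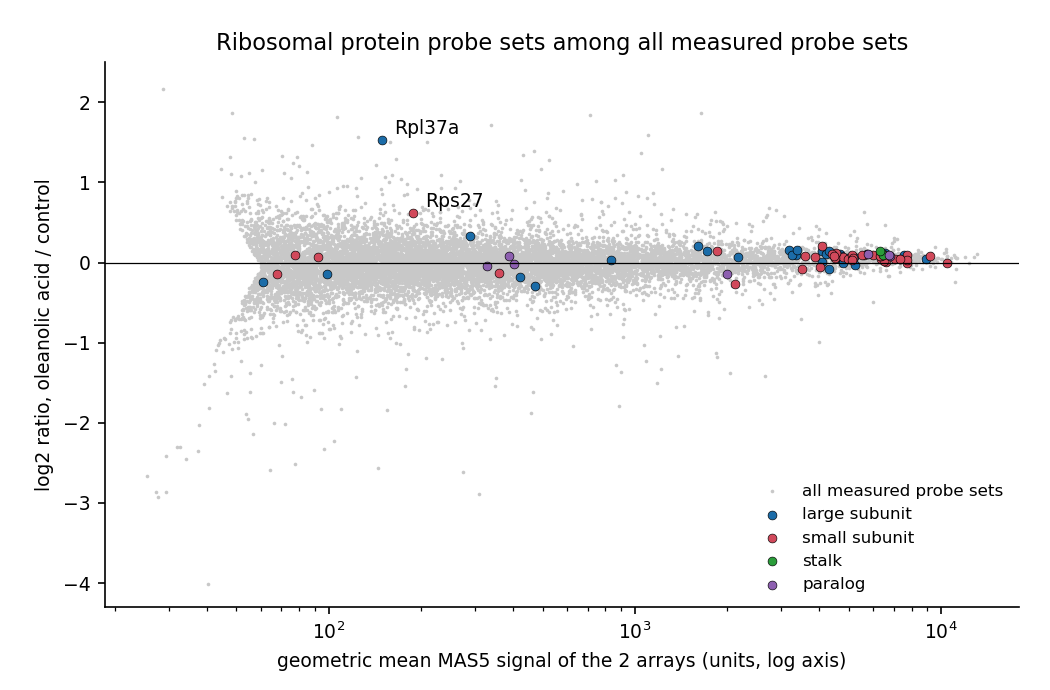
Log2 ratio of oleanolic acid over control (vertical axis) against the geometric mean MAS5 signal of the 2 arrays (horizontal, log axis) for all 11642 measured probe sets in grey and the 83 measured ribosomal probe sets in colour by subunit. Most coloured points lie in a narrow band just above 0 at the bright end, and the 2 labelled points past 0.5, of Rpl37a and Rps27, lie among dim probe sets.

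Most ribosomal probe sets were bright. Of the 83 measured probe sets 69 (83.1%) lay in the highest of 4 signal bands, which begins at 594 units. The 55 ribosomal probe sets with a mean signal above 4000 units had a median log2 ratio of 0.081, with the middle 50% between 0.045 and 0.099, and 55 of 55 were within 0.25 of 0. Of them 49 were above 0. Probe sets of other genes in that range, 409 in all, also lay above 0 for the most part: 323 of them did, with a median of 0.054 and the middle 50% between 0.0097 and 0.095. Of these 409, 391 were within 0.25 of 0. The 60 ribosomal probe sets in that range that carry several symbols had a median of 0.049, with 50 above 0. Between 2000 and 4000 units the medians were 0.075 for 10 ribosomal and 0.029 for 626 other probe sets. Between 1000 and 2000 units there were only 3 ribosomal probe sets, with a median of 0.15, against 0.0084 for 1055 others. At or below 1000 units, 15 ribosomal probe sets had a median of -0.015 and ran from -0.30 to 1.53, and 9380 others had a median of -0.020. The sizes of 0.25 or more in the ribosomal set came, with 1 exception at -0.27 (Rps24), from probe sets in this dim range.

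The design of the probe sets was also unusual. Those ending in _x_at, which by the maker's convention hold oligonucleotides that also match other transcripts, made up 39.6% of the ribosomal probe sets and 6.68% of all. Their measured members, 37 in number, had a median log2 ratio of 0.081, against 0.035 for all measured probe sets with that ending. For the 27 ending in _a_at, which by the same convention match transcripts of 1 gene, it was 0.082, against 0.015. That ending does not assure a single symbol here: the probe set annotated with Rps27rt and Rps27, which the rule left out, also has it. Of the 31 with the plain ending _at, 14 were not measured, and the median of the other 17 was 0.064, against -0.017. Without the _x_at, _s_at and _a_at kinds, 16 genes were left, 11 of them above 0 (48.0% of all genes in that setting), with a median of 0.056.

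**Figure D2:**
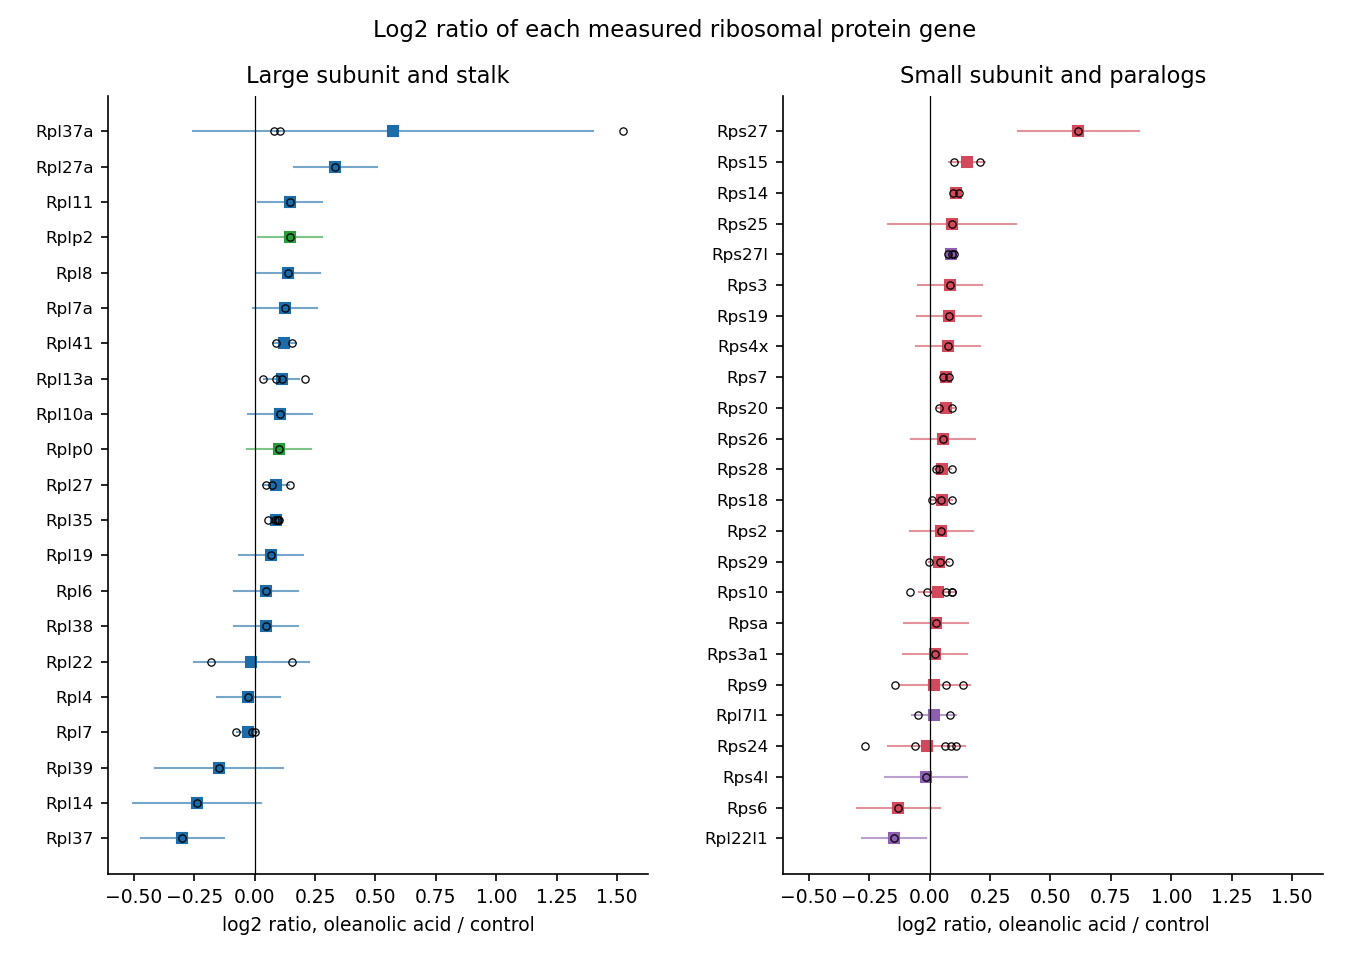
Log2 ratio of oleanolic acid over control for each of the 45 measured ribosomal protein genes, by subunit and in order of value; squares are gene means, lines are plus and minus 1 probe set SD, and open circles are single probe sets. Most genes lie between 0 and 0.15, and the wide line of Rpl37a comes from 1 probe set at 1.53.

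In the large subunit, 13 of 19 measured genes were above 0, beside 50.2% of all genes. Their median was 0.087 (0.049 with quantile normalization and 0.046 with lowess centring). The stalk recruits elongation factors to the ribosome. Its anchor Rplp0 read 6246 units in the control and 6693 with oleanolic acid, a log2 ratio of 0.10 (probe set SD 0.13). Its partner Rplp2 had 6007 and 6643 (0.15, probe set SD 0.13). For both, the higher array was that of oleanolic acid, and the difference was of the order of the probe set SD. The third stalk protein, Rplp1, is reported here only by a probe set it shares with another symbol, with signals of 6396 and 6845 (0.098).

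Rpl11, which with Rpl5 and the 5S RNA forms a particle that can bind the p53 inhibitor Mdm2, read 3884 units in the control and 4297 with oleanolic acid, a log2 ratio of 0.15 (probe set SD 0.13). Rpl5 has only shared probe sets, 3 measured, with a mean ratio of -0.11. The bright one, with 6519 and 6635 units, was at 0.025, on the same side of 0 as Rpl11, and 2 dim ones, with 339 and 312 and with 317 and 267, were at -0.12 and -0.25.

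Around the exit tunnel, 3 of 6 measured proteins were above 0, beside 50.2% of all genes. The rest of the 10 listed had no probe set with their symbol alone. Rpl4, which lines the tunnel, had 5258 and 5167 units, a log2 ratio of -0.025 (probe set SD 0.13). Rpl35, at the tunnel's mouth, was reported by 5 probe sets with control signals between 3157 and 4843, and its ratios ran only from 0.056 to 0.10 (mean 0.087 ± 0.019, SD, n = 5 probe sets). Rpl19 had 5088 and 5327 (0.066), and Rpl38, which in mouse embryos is needed for translation of Hox messenger RNAs, 8742 and 9034 (0.047, but -0.018 with lowess centring). Rpl39, a very small tunnel protein, was dim on its own probe set, with 103.8 and 93.7 (-0.15, probe set SD 0.27), while a probe set it shares had 9143 and 9223 (0.013). Rpl22, an RNA-binding protein of the tunnel side of the subunit, was measured by 2 probe sets that lay apart, a bright one with 3017 and 3358 (0.15) and a dimmer one with 448 and 395 (-0.18).

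The other large subunit genes higher in the oleanolic acid array by the largest amounts were Rpl37a and Rpl27a. Rpl37a, a zinc-binding protein, had a mean of 0.57 ± 0.83 (SD, n = 3 probe sets). Its bright probe sets had signals of 5521 and 5945 (0.11) and of 6501 and 6869 (0.079), and the third had 87.7 and 252.6, a log2 ratio of 1.53. That probe set ends in _x_at and was the only ribosomal one past 1.5, a size that 0.103% of all measured probe sets exceeded upwards and 0.335% downwards. Another dim probe set, annotated with Rpl37a and a microRNA gene, went the other way, with a log2 ratio of -0.30 and 81.2 units in the oleanolic acid array. With the brightest probe set alone Rpl37a was at 0.079. Which transcript the third probe set reads was not tested.

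On its own measured probe set Rpl27a had 257 and 325 units, a log2 ratio of 0.33 (probe set SD 0.17). A bright probe set that it shares with pseudogene symbols had 6087 and 6413, a ratio of 0.075. The next in order were Rpl8, close to the peptidyl transferase centre, with 4110 and 4526 (0.14), Rpl7a with 6289 and 6854 (0.12), Rpl41, the smallest ribosomal protein, at 0.12 ± 0.047 (SD, n = 2 probe sets), Rpl13a, known also for silencing of inflammatory messenger RNAs, at 0.11 ± 0.072 (SD, n = 4 probe sets), and Rpl10a with 4523 and 4860 (0.10). Neighbours in this order do not differ beyond their probe set SDs. Rpl27 (0.088 ± 0.052, SD, n = 3 probe sets) and Rpl6 (0.049) completed the genes above 0.

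Below 0 in the large subunit were Rpl37, Rpl14, Rpl39, Rpl7, Rpl4 and Rpl22. Rpl37 had the lowest ratio of all, -0.30 (probe set SD 0.17) from signals of 524 and 426, yet its 2 measured probe sets shared with a retrogene symbol, at 5437 and 5440 and at 6072 and 6119, were at 0.00080 and 0.011. Rpl14 was read by a dim probe set with 66.2 and 56.1 (-0.24, probe set SD 0.27), and 5 brighter shared ones ran from 0.045 to 0.31. Rpl7 was at -0.029 ± 0.042 (SD, n = 3 probe sets), with ratios from -0.077 to 0.000070. For Rpl37, Rpl14 and Rpl39 the dim probe set with 1 symbol was thus lower in the oleanolic acid array than in the control, and every measured bright probe set that they share was near or above 0.

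**Figure D3:**
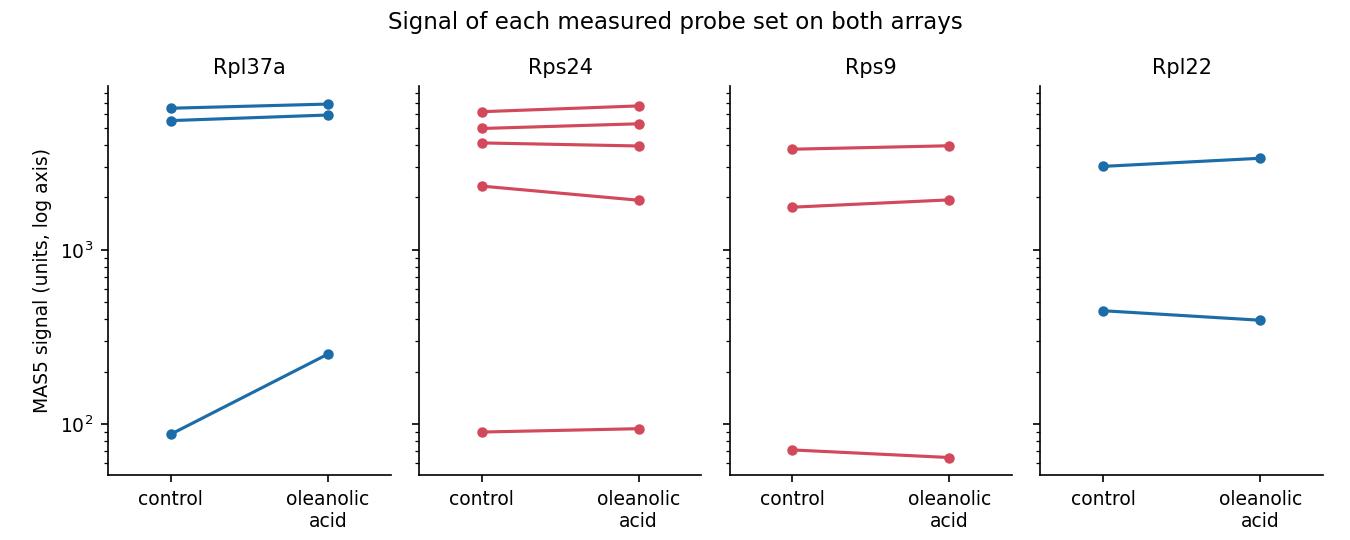
MAS5 signal (vertical, log axis) of each measured probe set of Rpl37a, Rps24, Rps9 and Rpl22 on the control and the oleanolic acid array; lines join the values of 1 probe set, and heights of different probe sets are not comparable. The dim probe set of Rpl37a runs from 87.7 to 252.6 while its bright ones are nearly flat.

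In the small subunit, 18 of 20 measured genes were above 0, beside 50.2% of all genes, with a median of 0.054. The median was 0.0026 with quantile normalization and 0.0095 with lowess centring, and several of these genes were then below 0. Rps27, another zinc-binding protein, had the highest ratio of all 45 genes, 0.62 (probe set SD 0.25), from 1 probe set with signals of 152 and 233. A brighter probe set, shared with the retrogene Rps27rt, had 3400 and 3672, a ratio of 0.11. The oleanolic acid array was the higher on both, by different amounts.

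The 3 measured proteins along the path of the messenger RNA, of 5 listed, were above 0, beside 50.2% of all genes. Of these, Rps15 and Rps3 lay above the middle 50% of the small subunit (0.031 to 0.080). Rps15, near the decoding centre, was read by 2 probe sets, with signals of 4233 and 4540 (log2 ratio 0.10) and of 3791 and 4381 (0.21), a mean of 0.15 ± 0.076 (SD, n = 2 probe sets). Rps3, at the messenger RNA entry channel, had 4347 and 4606 (0.083), and Rps2, beside it, 7213 and 7463 (0.049, but -0.0082 with quantile normalization). Rps23, at the decoding site, has only a shared probe set, with 5826 and 6007 (0.044).

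Rps6, the protein that S6 kinases phosphorylate downstream of mTORC1, was at -0.13 (probe set SD 0.17) on its own measured probe set, with signals of 377 and 345. Its 8 measured shared probe sets ran from -0.43 to 0.074, and the 4 bright ones, with control signals from 5803 to 8269, from -0.0091 to 0.062. The order of the arrays therefore differed between probe sets of this gene, and the largest sizes came from the dimmer ones.

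Probe sets of Rps24 and Rps9 also lay on both sides of 0. Rps24 had 5 measured probe sets, with ratios of -0.27 (2325 and 1929 units), -0.059 (4113 and 3949), 0.064 (90.3 and 94.4), 0.090 (4975 and 5294) and 0.11 (6210 and 6704), a mean of -0.013 ± 0.16 (SD, n = 5 probe sets). Splice forms that differ near the end of the transcript are known for this gene, and which form each probe set reads was not tested. Rps9 was at 0.020 ± 0.15 (SD, n = 3 probe sets), with 0.14 and 0.066 on brighter probe sets and -0.14 on a dim one with 71.3 and 64.5. By contrast, Rps14 (0.11 ± 0.018, SD, n = 2), Rps7 (0.068 ± 0.019, SD, n = 2), Rps28 (0.053 ± 0.034, SD, n = 3), Rps20 (0.066 ± 0.037, SD, n = 2), Rps18 (0.051 ± 0.042, SD, n = 3) and Rps29 (0.040 ± 0.042, SD, n = 3) had probe sets close to each other. Of the 19 ribosomal genes with several measured probe sets, 15 spanned less than 0.2 on the log2 scale, and in 7 the probe sets lay on both sides of 0.

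The remaining small subunit genes were Rps25, required by some viral entry sites for translation, at 0.093 on a dim probe set with 74.9 and 79.9 units and at 0.086 on a bright shared one, Rps19, the gene most often mutated in Diamond-Blackfan anaemia, with 3496 and 3692 (0.079), Rps4x (0.075), Rps26 (0.054), Rps10 (0.033 ± 0.076, SD, n = 5 probe sets), Rpsa, which also serves as a laminin receptor, with 5084 and 5180 (0.027), and Rps3a1 (0.023). With quantile normalization and with lowess centring Rps10, Rpsa, Rps3a1, Rps2, Rps18, Rps28 and Rps29 were below 0, and Rps20 was at -0.0014 with quantile normalization alone.

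Of the paralogs, 4 were measured. Rpl22l1, which can take the place of Rpl22 and whose expression Rpl22 is known to repress, had 2107 and 1904 units, a log2 ratio of -0.15 (probe set SD 0.13). It was the only measured ribosomal gene below -0.1 whose gene value came from a signal above 1000. Rps27l, a p53-responsive paralog of Rps27, was read by 3 bright _x_at and _a_at probe sets at 0.090 ± 0.013 (SD, n = 3 probe sets), with control signals from 5561 to 6611, but the gene was at 0.014 with quantile normalization and 0.034 with lowess centring. Whether these also read Rps27 was not tested. Rpl7l1 was at 0.019 ± 0.092 (SD, n = 2 probe sets), and Rps4l, which RefSeq lists as a transcribed pseudogene, at -0.015 (probe set SD 0.17).

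The rule left out 102 probe sets annotated with a ribosomal symbol and further symbols, mostly pseudogenes, and 89 of them were measured. They give values for subunits that have no probe set of their own: of 77 subunits listed, 42 had a probe set with their symbol alone, 27 only shared ones, and 8 were not analysed here. The 89 had a median log2 ratio of 0.050, with 67 above 0 and 85 within 0.25 of 0. Of all 11642 measured probe sets, 5746 were above 0 and 8699 within 0.25 of 0. For the 27 subunits that rest on shared probe sets alone, 27 of 27 means lay within 0.25 of 0, beside 5464 of all 7137 measured genes. They ran from -0.11 (Rpl5) to 0.12 (Rps13, the mean of 3 probe sets with a geometric mean signal of 3303 and 3578). Counted together with the probe sets of the rule, 73 genes had a median of 0.056 and 58 were above 0, against 50.3% of all genes in that setting. None was past 0.5, a size that 2.63% of all genes exceeded upwards and 3.24% downwards in the values as reported.

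Genes that build or serve the ribosome gave no common direction. Among ribosome biogenesis factors, 51 of 59 listed genes were measured, with 21 above 0 and 30 below, beside 50.2% of all genes above 0. Their median was -0.025 (0.0059 with quantile normalization and 0.00016 with lowess centring). Past 0.25, 0 of 51 were higher and 8 of 51 lower, beside 10.6% and 12.9% of all genes. The lowest were the dim genes Tsr1 (-0.47, 74.5 and 53.9 units), a factor of small subunit maturation, Ftsj3 (-0.43), a ribosomal RNA methyltransferase, Rrn3 (-0.38), an initiation factor of RNA polymerase I, and Ddx10 (-0.31), an RNA helicase, with probe set SDs of 0.25 to 0.27.

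Initiation factors lay between -0.16 and 0.23, with 30 of 36 measured, 17 above 0 (50.2% of all genes) and a median of 0.016. Their largest values were those of the eIF2B subunit genes Eif2b4 (0.23) and Eif2b2 (0.16 ± 0.84, SD, n = 3 probe sets), of Eif1a (0.16 ± 0.054, SD, n = 2 probe sets) and of Eif4e2 (-0.16). Among 9 measured elongation and termination factors of 10 listed, 4 were above 0 (50.2% of all genes), with a median of -0.0043. Eef1a1, which brings aminoacyl-tRNA to the ribosome, had signals of 9888 and 10847 (0.13), Etf1 was at 0.12 ± 0.43 (SD, n = 4 probe sets), Eef1d at 0.10, and Eef2k, the kinase that inhibits elongation factor 2, was the only one past 0.25, with 68.2 and 45.2 (-0.59, probe set SD 0.27).

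Of 16 measured mTORC1 and TOP regulators (22 listed), 1 was above 0.25 and 3 below -0.25, beside 10.6% and 12.9% of all genes. Ddit4, an inhibitor of mTORC1, had 126.8 and 68.8 units, a log2 ratio of -0.88 (probe set SD 0.27), Sesn2, another inhibitor, 104.3 and 83.0 (-0.33), Tia1, a TOP-binding repressor, was at -0.26 ± 0.074 (SD, n = 3 probe sets), and Tsc2, an inhibitor too, at 0.33. The inhibitors thus lay on both sides of 0, and all these genes were dim. Among proteins that belong to or attach to the ribosome but fall outside the naming rule, Fau, the precursor of a small subunit protein, had 5048 and 5275 (0.064), Tpt1 was at 0.033, Pabpc1 at 0.0034 and Nap1l1 at -0.087.

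**Figure D4:**
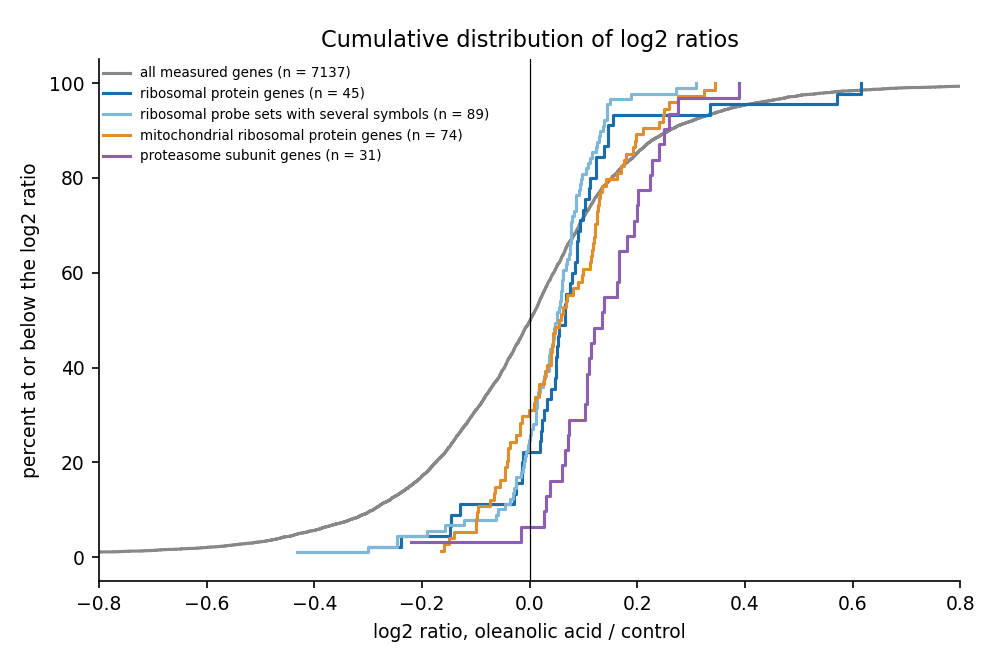
Percent of genes or probe sets at or below each log2 ratio of oleanolic acid over control, for all measured genes, ribosomal protein genes, ribosomal probe sets with several symbols, mitochondrial ribosomal protein genes and proteasome subunit genes; the axis ends at -0.8 and 0.8. The ribosomal curves rise steeply just above 0, and the proteasome curve, with a median of 0.13, lies to their right.

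Other large complexes give a scale for the size of the shift. The 74 measured mitochondrial ribosomal protein genes, which encode the separate ribosome of mitochondria, had a median of 0.056, with 51 above 0 (50.2% of all genes) and 4 above 0.25 (10.6% of all genes), the highest being Mrps30 (0.34), Mrpl36 (0.32), Mrpl40 (0.28) and Mrpl37 (0.26). The 31 measured proteasome subunit genes had a median of 0.13, with 29 above 0 (50.2% of all genes) and 4 above 0.25, led by Psmd11 (0.39 ± 0.088, SD, n = 4 probe sets), Psmd13 (0.28), Psmb3 (0.26) and Psmd3 (0.25). With lowess centring the medians were 0.017 for the cytosolic ribosome, 0.070 for the mitochondrial ribosome and 0.13 for the proteasome, so the value of the cytosolic ribosome was the one that moved most with this choice. The lowess curve was fitted to all measured probe sets, the ribosomal ones included. Above 4000 units these were 55 of the rule and 60 shared ones, beside 409 others. The part of this in the movement was not tested. With 1 array per diet, differences between these lists were not tested.

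**Figure D5:**
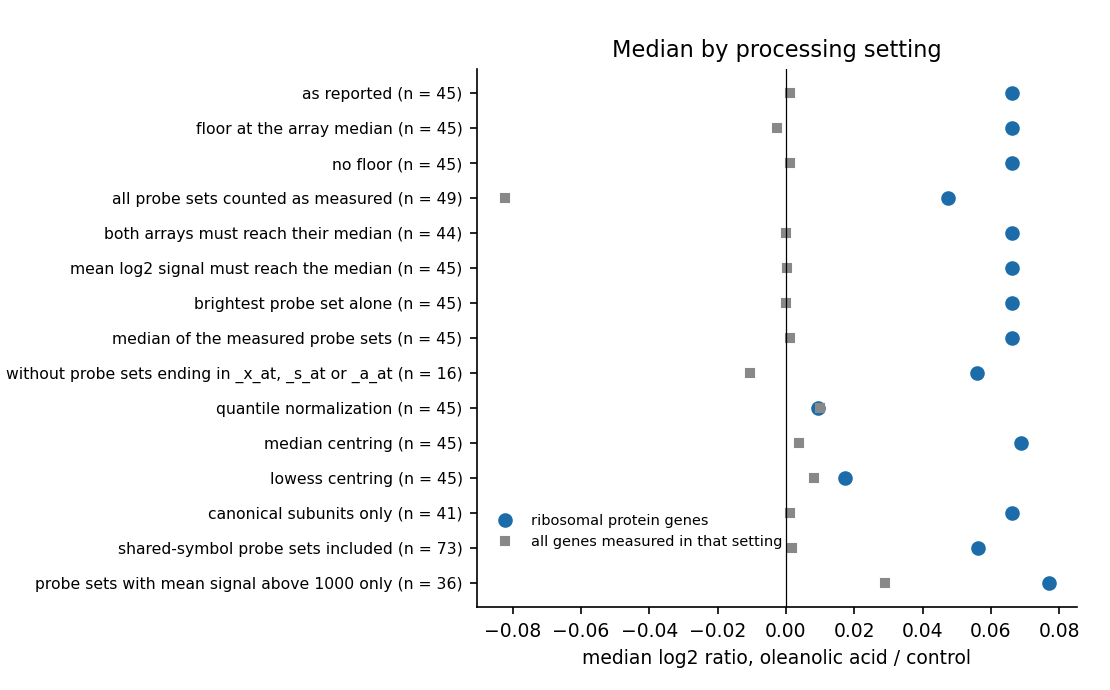
Median log2 ratio of the ribosomal protein genes (circles) and of all genes measured in the same setting (squares) for the values as reported and under 14 other processing settings; n is the number of ribosomal genes. The circles lie between 0.047 and 0.077 except with quantile normalization (0.0095) and lowess centring (0.017).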

How the data were processed

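The authors deposited 1 linear intensity per probe set and array; the submitters' processing notes name MAS5 as the tool (version and genome build: not given in the sources used here). From the values, the mean after trimming 2% at each end was 300.1 on each array, and no further scaling was applied. Detection calls were not used here. Gene symbols came from the platform annotation (1 symbol for 20380 probe sets, several for 691, none for 1555; 64 control probe sets were left out), and 49 of 49 ribosomal symbols matched RefSeq GRCm38.p6 by gene identifier.

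Signals were raised to each array's 25th percentile (10.7 and 10.1) and converted to log2; filtering gave 11642 measured probe sets and 7137 genes. In 4 bands of rising signal the pooled probe set SD was 0.27, 0.25, 0.17 and 0.13 (2427 genes with several probe sets). It covers probe error, not variation between mice; the number of arrays limits precision.

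The members and lists were chosen with earlier results of these data known. Named are the 15 highest and 15 lowest members, all paralogs, members in the role lists and those with disagreeing probe sets, and up to 4 genes of each other list; the rest of the members were named after their values were seen, to complete the account. Marker lists covered hepatocytes, exocrine pancreas, B and plasma cells, macrophages and brown fat. No test was possible. Calculations used Python 3.11.15, pandas 2.3.3 and statsmodels 0.14.6 (lowess) and were tested on simulated data.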

Additional observations from a re-analysis of the deposited data

How the results depend on the processing

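Of 14 alternative settings, 12 were planned and 2 were chosen after seeing the data (shared-symbol probe sets included, and probe sets above 1000 units only). In all of them the median of the ribosomal genes was above 0, from 0.0095 to 0.077, and no ribosomal gene was past 1.5. With quantile normalization, however, the median of all genes was 0.0101, above the 0.0095 of the ribosomal genes. With lowess centring it was 0.0082, beside 0.017 for the ribosomal genes. The 35 ribosomal genes above 0 became 11 (of 16 left, against 48.0% of all genes) without probe sets ending in _x_at, _s_at or _a_at. Fewer genes could be counted there. With shared-symbol probe sets they became 58 (of 73, against 50.3% of all genes). The 2 genes above 0.5 became 1 with the brightest probe set alone, with the median of the probe sets and without the _x_at, _s_at and _a_at kinds, and 0 with shared-symbol probe sets or above 1000 units only. The 3 genes above 0.25 became 0 above 1000 units only, and the 1 below -0.25 became 0 in that setting, with shared-symbol probe sets and without the _x_at, _s_at and _a_at kinds. Of 587 values of single genes under these settings, 557 moved by less than the probe set SD, 30 by more, and 0 values past 0.25 changed sign. Many of them could not move, so these counts do not measure stability. The 26 genes with 1 measured probe set keep their value with the brightest probe set alone and with the median. Leaving out the paralogs changes no gene's value. With shared-symbol probe sets Rps27 was at 0.36 and Rpl37 at -0.096, and with all probe sets counted Rps20 was at 0.29 and Rpl27a at 0.16. No paired analysis was possible because each diet has 1 array and the labels give no replicate numbers; for the same reason no replicate could be left out. Signals near the floor give no direction.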
